A study of Mus musculus with 2 samples.

Results

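The genes described here are 10 silencers of retrotransposons, taken by symbol from a table of 28592 genes measured in mouse embryonic stem (ES) cells. They are the corepressor gene Trim28, the histone methyltransferase gene Setdb1 with its cofactor gene Atf7ip, the HUSH complex genes Mphosph8 and Pphln1, the ATPase gene Morc3, the heterochromatin protein 1 (HP1) genes Cbx1, Cbx3 and Cbx5, and the zinc finger gene Zfp809. All 10 were found in the table. The series holds 1 group with 2 replicates, E14TG2a cells (a male line that lacks functional Hprt) cultured in 2i/LIF, where inhibitors of MEK and GSK3 together with leukaemia inhibitory factor keep them in the ground state. Ribosomal RNA was depleted from total RNA, strand-specific libraries were sequenced, and the authors gave each gene an FPKM value (fragments of a transcript per kilobase, relative to all mapped fragments of its library), a level that is already divided by length and so can be set side by side between genes. No source used here says that the replicates were separate cultures, so their spread may be technical, and with a single condition no test between groups exists. The FPKM column of replicate 1 adds up to 946498 and that of replicate 2 to 928174. How many reads lie behind them is unknown.

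KRAB zinc finger proteins bind sequences inside endogenous retroviruses and other transposable elements and bring TRIM28 (also called KAP1) to them. TRIM28 recruits SETDB1, which trimethylates histone H3 at lysine 9, and HP1 proteins bind that mark. The HUSH complex, made of TASOR, MPP8 (from Mphosph8) and periphilin (from Pphln1), works with SETDB1 and MORC2 on LINE-1 elements and other long, intron-poor insertions. In ES cells much of the silencing of endogenous retroviruses is known to rest on this machinery. Levels of the transposable elements themselves were not analysed here.

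The cells carried the markers of their label. All 6 ES markers were detected, from Esrrb at a mean FPKM of 94.6 to Dppa5a at 7048. None of 6 feeder fibroblast markers reached an FPKM of 1 in both replicates, although 5 of the 6 were higher in replicate 2 and their summed FPKM was 0.752 in replicate 1 and 3.18 in replicate 2. None of 6 primitive endoderm markers was detected either (summed FPKM 0.611 and 0.545), with Gata6 and Foxa2 listed at 0 in replicate 1. In bulk RNA, fewer cells of a type and less RNA per cell cannot be told apart.

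All 10 silencing genes were expressed. Each reached an FPKM of at least 1 in both replicates, the level called detected here, against 39.4% of all genes and 50.6% of 20327 genes that RefSeq types as protein-coding. A stricter floor of 5 was passed by 8 of the 10, against 28.1% of all genes. Their median FPKM was 64.8 ± 1.87 (SD of the replicate medians, n = 2), beside 0.233 over all genes and 13.5 over the 10278 detected coding genes. The highest of the 10, Trim28, stood 132-fold above the lowest, Atf7ip. In descending order of mean level the genes were Trim28, Cbx3, Cbx1, Cbx5, Morc3, Setdb1, Mphosph8, Zfp809, Pphln1 and Atf7ip.

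**Figure D1:**
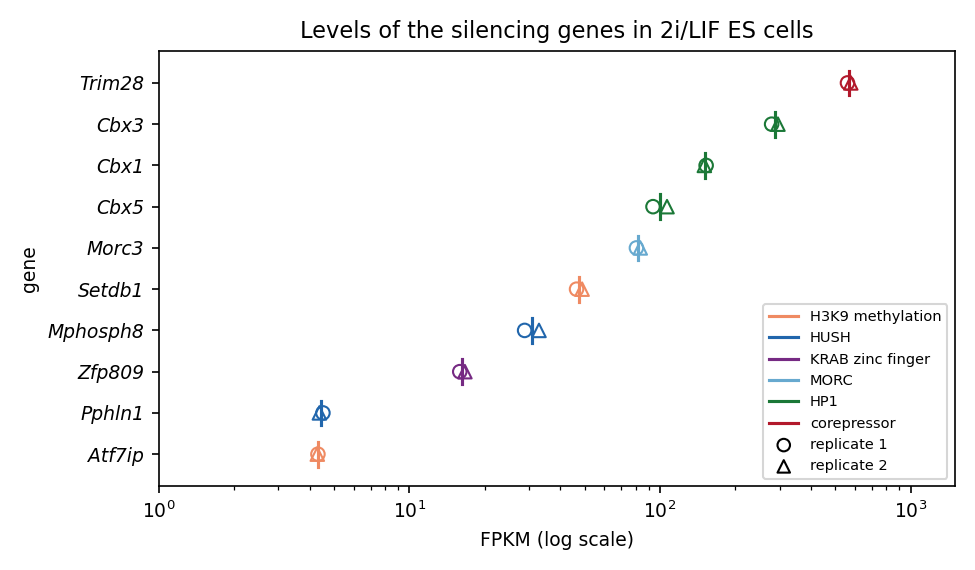
FPKM of the 10 silencing genes on a log axis, with a circle for replicate 1, a triangle for replicate 2 and a bar at the mean, coloured by role. Trim28 lies at 560 and 577, and Atf7ip and Pphln1 lie together between 4.29 and 4.51.

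Trim28 (ENSMUSG00000005566.12, chromosome 7, 13024152 to 13031032 on GRCm38) had an FPKM of 560 in replicate 1 and 577 in replicate 2, a mean of 568 ± 12.1 (SD, n = 2). It ranked 220th of 28592 genes by mean level and made up 44.2% and 43.7% of the summed FPKM of the 10 genes. TRIM28 is a scaffold with a RING finger, a PHD finger and a bromodomain, and it acts as its own SUMO ligase. Its relatives of the TIF1 family were lower: Trim24, a coregulator of nuclear receptors, was at 40.4 and 41.9, and Trim33, a regulator of TGF-beta signalling, at 18.3 and 20.3. Trim28 exceeded Trim24 by 3.79 ± 0.0058 and Trim33 by 4.88 ± 0.076 log2 FPKM units (mean difference ± SD, n = 2). Trim66, the remaining family member, was at 0.0873 and 0.265, so 2 of the 3 relatives were detected.

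The genes for the histone H3 lysine 9 methylation step were far apart. Setdb1 (ENSMUSG00000015697.13, chromosome 3, 95323525 to 95357202) was at 46.4 and 48.9, a mean FPKM of 47.6 ± 1.71. Atf7ip (ENSMUSG00000030213.11, chromosome 6, 136518789 to 136610850), whose protein stabilises SETDB1 and keeps it in the nucleus, was at 4.31 and 4.29, a mean of 4.30 ± 0.0175. Setdb1 was thus 10.8-fold above its cofactor gene in replicate 1 and 11.4-fold in replicate 2. The paralog Atf7ip2 stood higher than Atf7ip in both replicates, at 10.4 and 10.3, a difference of 1.27 ± 0.0070 log2 units.

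All 8 other genes on the list of H3 lysine 9 methyltransferases and their partners were detected, with a median FPKM of 15.4. Setdb1 lay above all 8. The next was Ehmt2, the gene of the mono- and dimethyltransferase G9a, at 33.4 and 32.8, followed by Zfp644, a zinc finger partner of G9a, with a mean of 26.6 ± 0.870. Setdb1 exceeded Ehmt2 by 0.53 ± 0.070 log2 units, and the replicate values of the pair did not overlap. At the other end were Atf7ip2 and Setdb2, the closest relative of Setdb1, at a mean of 9.07 ± 1.32. The 3' end of Setdb1 shares 75 bases with the coding gene Cers2 on the other strand (FPKM 40.9 and 37.8). Whether the quantification used strand is not given in the sources used here, and the effect of this overlap was not tested.

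The start regions of 4 of the genes are shown, from partners at very different levels (Setdb1 and Atf7ip) and from a HUSH and a zinc finger gene, to let their CpG content be seen beside their FPKM. Each line gives the bases before the annotated start that lie outside the gene's own RefSeq span, from RefSeq on GRCm38.p6, written along the gene's strand, with CpG dinucleotides in capitals. Setdb1 (chr3:95357203-95357452, minus strand), Atf7ip (chr6:136518601-136518788, plus strand), Mphosph8 (chr14:56667998-56668234, plus strand) and Zfp809 (chr9:22225453-22225666, plus strand) hold 13, 15, 18 and 10 CpG in these stretches.
Setdb1: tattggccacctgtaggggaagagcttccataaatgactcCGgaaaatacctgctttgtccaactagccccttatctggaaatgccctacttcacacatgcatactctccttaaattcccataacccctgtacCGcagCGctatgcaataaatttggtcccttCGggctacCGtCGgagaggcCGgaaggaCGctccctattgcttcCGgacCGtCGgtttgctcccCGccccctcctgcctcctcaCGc
Atf7ip: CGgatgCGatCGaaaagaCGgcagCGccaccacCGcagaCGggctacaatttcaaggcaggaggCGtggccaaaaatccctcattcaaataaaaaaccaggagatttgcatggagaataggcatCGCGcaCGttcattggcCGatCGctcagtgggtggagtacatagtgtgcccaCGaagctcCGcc
Mphosph8: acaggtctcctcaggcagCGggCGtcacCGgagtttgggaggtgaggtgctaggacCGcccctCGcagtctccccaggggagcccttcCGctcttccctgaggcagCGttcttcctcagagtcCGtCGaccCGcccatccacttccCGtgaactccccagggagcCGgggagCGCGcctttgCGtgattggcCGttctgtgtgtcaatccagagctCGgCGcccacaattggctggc
Zfp809: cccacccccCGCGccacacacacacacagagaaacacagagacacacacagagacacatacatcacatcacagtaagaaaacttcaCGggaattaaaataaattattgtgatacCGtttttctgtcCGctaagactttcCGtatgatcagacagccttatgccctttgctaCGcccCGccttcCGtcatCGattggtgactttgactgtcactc

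In windows from 250 bases before to 50 after the first listed start, the ratio of observed to expected CpG was at least 0.6 for 10 of 10 silencing genes. The same held for 36.5% of 27025 promoters and for 75.6% of the 8628 detected genes with a promoter in the table, so passing this value is common among expressed genes. The median ratio of those detected genes was 0.782, and Trim28, Setdb1 and Zfp809 lay below it. The ratio was highest for Pphln1, at 1.20, and lowest for Setdb1, at 0.703, and Zfp809, at 0.612. Pphln1 and Atf7ip, the genes with the lowest FPKM, had the highest ratios, 1.20 and 1.14, and Trim28, with the highest FPKM, had 0.761. Cbx5 and Cbx1, at a mean FPKM of 100.2 and 151, came next at 1.09 and 1.06. A relation of the ratio to the level was not tested. The GC box GGGCGG or its reverse complement CCGCCC was present in 8 of the 10 windows, in 35.9% of all promoters and in 66.3% of those of detected genes. CCAAT or ATTGG was present in 6 of 10, against 37.9% and 40.6%. CCGGAAG or CTTCCGG, a core bound by ETS factors, was present in the windows of Setdb1 and Pphln1, 2 of 10, against 9.12% and 20.8%. TATAAA or TTTATA was found in none of the 10, against 14.2% and 6.22%. These are matches of letters on either strand, not binding sites. The windows of Cbx1 and Cbx3 lie wholly inside the RefSeq span of their gene, past its outermost start.

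Of the HUSH genes, Mphosph8 was the higher. Mphosph8 (ENSMUSG00000079184.9, chromosome 14, 56668235 to 56697430), whose protein reads methylated H3 lysine 9 through a chromodomain, was at 28.8 and 32.9, a mean FPKM of 30.8 ± 2.87. Pphln1 (ENSMUSG00000036167.14, chromosome 15, 93398345 to 93491913), whose protein binds RNA, was at 4.51 and 4.37, a mean of 4.44 ± 0.102. Mphosph8 stood 6.38-fold above Pphln1 in replicate 1 and 7.52-fold in replicate 2. The third core gene, Tasor, is listed under its older symbol Fam208a and was at 40.9 and 42.6. Fam208a exceeded Mphosph8 by 0.44 ± 0.092 and Pphln1 by 3.23 ± 0.076 log2 units, so Pphln1 was the lowest HUSH core gene in both replicates. Mphosph8 shares 1156 bases with the lncRNA gene Gm16973 on the other strand (FPKM 3.97 and 5.31), with the same limit on strand as for Setdb1. RefSeq lists 24 transcripts for Pphln1, against 1 to 11 for the other silencing genes, and a value per gene does not show which of them were present.

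Morc3 stood between the HP1 genes and Setdb1. Morc3 (ENSMUSG00000039456.8, chromosome 16, 93832121 to 93876077), an ATPase of the MORC family that acts with DAXX on endogenous retroviruses, was at 80.5 and 83.4, a mean FPKM of 81.9 ± 2.03. On the list of other HUSH and MORC genes 5 of 7 were detected. Morc1, known for silencing transposons in the male germline, was the highest of them at 93.3 and 93.9, above Morc3 by 0.19 ± 0.029 log2 units. Zfp638, whose protein directs HUSH to unintegrated retroviral DNA, followed at 88.2 and 90.9. Morc2a, the family member that works with HUSH, was at 20.7 and 21.1, and Morc3 exceeded it by 1.97 ± 0.013 log2 units. Morc4 (0.301 and 0.336) and Morc2b (0.0518 and 0.0435) were below the detection level.

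The HP1 genes were expressed in the order Cbx3, Cbx1, Cbx5 in both replicates. Cbx3 (HP1 gamma, ENSMUSG00000029836.14, chromosome 6, 51470154 to 51483704) was at 279 and 295, a mean FPKM of 287 ± 11.8. Cbx1 (HP1 beta, ENSMUSG00000018666.12, chromosome 11, 96788680 to 96808982) was at 153 and 150.2, a mean of 151 ± 1.76. Cbx5 (HP1 alpha, ENSMUSG00000009575.13, chromosome 15, 103191546 to 103239904) was at 93.7 and 107, a mean of 100.2 ± 9.11. HP1 proteins bind methylated H3 lysine 9 with a chromodomain and partners such as TRIM28 with a chromoshadow domain. No pair of the 3 had overlapping replicate values. Cbx3 exceeded Cbx1 by 0.92 ± 0.076 and Cbx5 by 1.52 ± 0.072 log2 units, and Cbx1 exceeded Cbx5 by 0.60 ± 0.15. Of the summed FPKM of the 3 genes Cbx3 made up 53.1% and 53.5%, Cbx1 29.1% and 27.2%, and Cbx5 17.8% and 19.3% in replicates 1 and 2. No row of the table is named as a pseudogene copy of any of the 10, and reads from copies under other names were not examined. By position, the transcribed pseudogenes Gm11517 and Gm30181 share 2825 bases with Cbx1 and 893 with Pphln1. The lncRNA gene LOC108169175 shares 1455 bases with Atf7ip on the same strand. Levels of these overlapping genes were not analysed here, and the effect of the overlaps was not tested.

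Zfp809 was the only DNA-binding KRAB zinc finger gene among the 10. It represses murine leukaemia virus and VL30 elements by binding their primer binding site. Zfp809 (ENSMUSG00000057982.7, chromosome 9, 22225667 to 22254117) was at 15.9 and 16.6, a mean FPKM of 16.3 ± 0.539, and Setdb1 exceeded it by 1.55 ± 0.0041 log2 units. Among 394 genes named Zfp with a number, of which 324 were detected, it ranked 79th, between Zfp945 (14.7 and 19.1) and Zfp955a (15.2 and 17.1), whose replicate values overlapped its own. The highest of these genes were Zfp42 at a mean of 382, Zfp207 at 169.5 and Zfp57 at 168.8, and the median was 5.77. Not all genes with such names encode a KRAB domain.

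On the list of 10 other KRAB zinc finger genes 8 were detected, with a median FPKM of 16.2. Zfp57, which protects imprints, led at 169 and 168, 3.38 ± 0.055 log2 units above Zfp809, and Zfp961 was at 61.5 and 59.0. Zfp708 (0.966 and 0.811) and Zfp455 (0.238 and 0.435) were below the detection level. Zfp809 shares 9954 bases of its span with Zfp599 (10.2 and 10.8), so the division of reads between these zinc finger genes is uncertain.

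The order of the 10 genes was the same in both replicates, and none of the 9 steps between neighbours in that order had overlapping replicate values. The smallest step was from Pphln1 to Atf7ip, 0.047 on the log2 scale. That is less than the typical gap between replicates at this level, since genes within 2-fold of the mean of Atf7ip had a median absolute log2 ratio between replicates of 0.127, so these 2 genes are not set apart. The step from Cbx5 to Morc3 was 0.29, against a median absolute ratio of 0.0597 for genes near either level. The other 7 steps ranged from 0.60 to 1.87.

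By FPKM, replicate 2 was higher for 7 of the 10 genes and lower for 3, against 48.8% of detected genes higher in replicate 2. The largest log2 ratios of replicate 2 to replicate 1 were 0.19 for Mphosph8 and 0.19 for Cbx5. They exceeded in size those of 90.1% and 92.8% of genes at like levels. The other 8 ratios lay between -0.05 and 0.08. Markers of fibroblasts were also higher in replicate 2, as given above, and their part in these ratios was not tested.

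**Figure D2:**
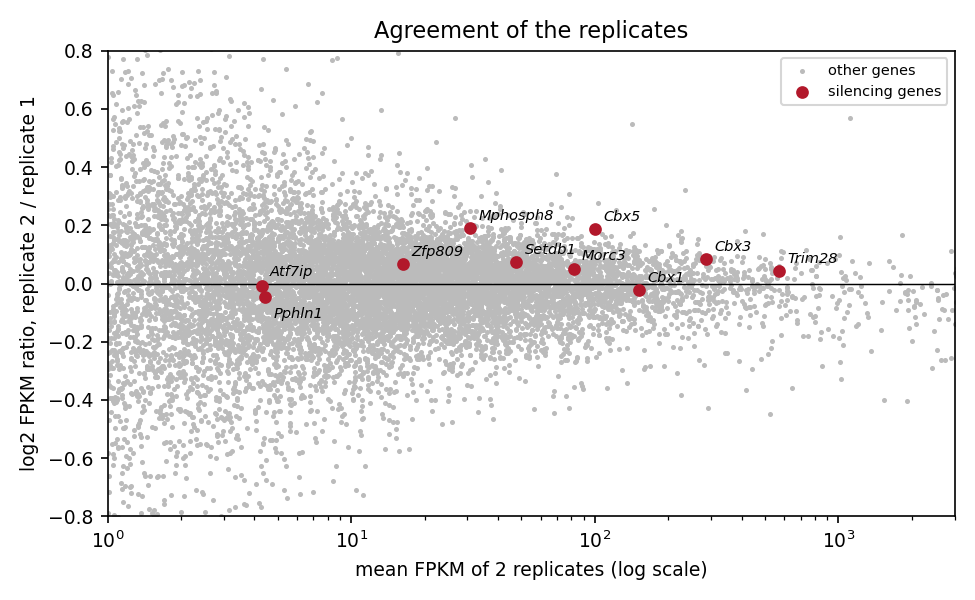
Log2 ratio of FPKM in replicate 2 to replicate 1 against mean FPKM (log axis), for genes above 0 in both replicates with a mean of at least 1. Red points are the 10 silencing genes, of which Mphosph8 and Cbx5 lie highest at 0.19, and 202 of 11483 genes fall outside the axes.

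Several of the 10 genes share a start region with another gene. Distances are between the closest listed starts, which can lie inside the RefSeq span of a gene. The start used for Cbx3 is 51470616, whereas its span begins at 51470154. From the outer ends of the spans of Cbx3, Cbx5, Pphln1 and Atf7ip the distances are shorter. The listed start of Cbx3 lies 722 bases from that of Hnrnpa2b1, an RNA-binding protein gene that runs the other way. That of Cbx5 lies 545 bases from that of Hnrnpa1, a paralog of Hnrnpa2b1, in the same arrangement. Both hnRNP genes were the higher of their pair. Hnrnpa2b1 was at 364 and 403, above Cbx3 by 0.42 ± 0.044 log2 units, and Hnrnpa1 was at 807 and 849, above Cbx5 by 3.05 ± 0.079. Pphln1 starts 16 bases from Zcrb1, a gene of the minor spliceosome, which was at 12.3 and 15.4 and exceeded it by 1.63 ± 0.26. In these 3 pairs the 2 genes differed by more than their replicate spread. The lncRNA gene Gm44140, which starts 98 bases from Atf7ip, was listed at 0 in both replicates. Gm31649 and Gm30881 start on the other strand within Trim28 and Morc3, and their levels were not analysed here.

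**Figure D3:**
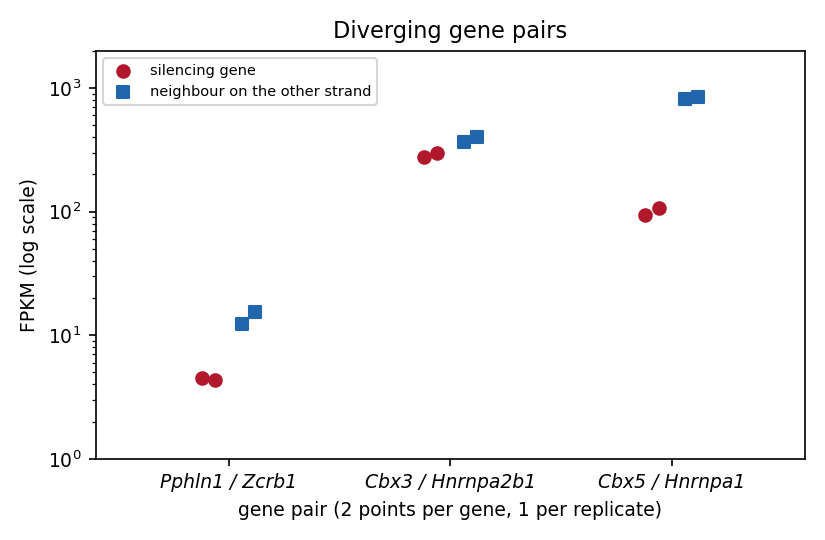
FPKM (log axis) of 3 silencing genes (red circles) and the gene that starts beside each on the other strand (blue squares), with 1 point per replicate. The neighbour is higher in each pair, by 0.42 log2 units for Cbx3 and by 3.05 for Cbx5.

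Genes related to this machinery were mostly detected. Over 9 lists of related factors 74 of 81 genes were detected, against 39.4% of all genes and 50.6% of coding genes. Not all of them act with the 10 genes. The lists include 9 genes for H3 lysine 9 demethylases, of which 7 were detected, and 7 Polycomb Cbx and Cdyl genes, all detected. Sumoylation of TRIM28 is what SETDB1 binds, and all 16 genes of the SUMO pathway were detected, with a median FPKM of 49.8. Sumo2 was the highest at 557 and 602, followed by Uba2, a subunit of the activating enzyme, at 339 and 347. The ligase gene Pias1 (4.06 and 3.81) and the SUMO protease gene Senp7 (3.19 and 4.26) were the lowest. Sumo2 and Trim28 were at like levels, with replicate values that overlapped.

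Among genes for heterochromatin assembly all 11 were detected, with a median FPKM of 95.8. The genes of histone H3.3, the variant laid down at silenced retroviruses by ATRX and DAXX, were the highest, H3f3a at 708 and 645 and H3f3b at 487 and 398. Resf1, a partner of SETDB1, was at 24.2 and 25.4, and Chaf1a, a subunit of the chromatin assembly factor CAF-1, was the lowest at 20.4 and 18.1.

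Of 16 genes that stand for states or elements held in check by this machinery 8 were detected, near the 50.6% of coding genes and above the 39.4% of all genes. Of 7 genes of the 2-cell-like state 3 were detected, with a median FPKM of 0.172, beside 0.233 for all genes and 1.22 for coding genes. Zscan4f had a mean of 5.58 ± 1.30 and Zscan4c one of 4.92 ± 0.277, near-identical copies whose share of reads is uncertain. Duxf3 was at 0.181 and 0.0203, and the replicates of Tcstv1 were listed at 0 and 0.0242. Of 8 germline genes 4 were detected, with a median FPKM of 1.84, beside 1.22 for coding genes. They were led by the RNA-binding protein gene Dazl at 16.6 and 16.2 and the synaptonemal complex gene Sycp3 at 16.7 and 16.0, and Taf7l (0.455 and 0.572) and Slc25a31 (0.460 and 0.405) were the lowest. The replicate values of Dazl and Sycp3 overlapped those of Zfp809. Bglap3, a gene that loss of Zfp809 is known to raise through a nearby VL30 element, was at 3.38 and 3.12.

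**Figure D4:**
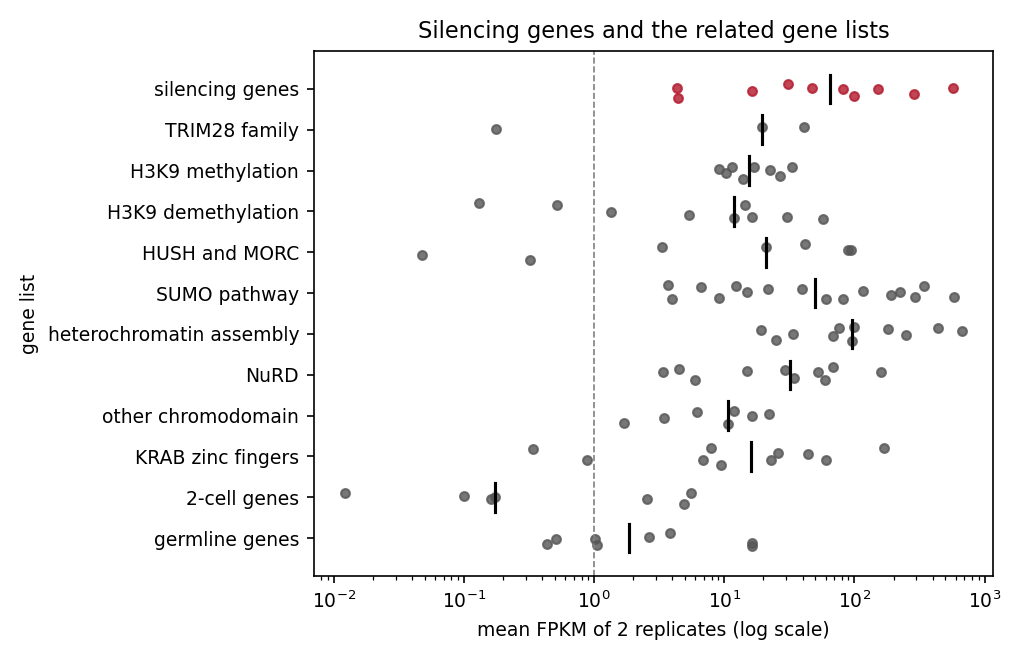
Mean FPKM (log axis) of each of the 10 silencing genes (red) and of the genes on 11 related lists (grey), with a black bar at each list's median and a dashed line at an FPKM of 1. The silencing genes have a median of 64.8, and the 2-cell genes lie lowest with a median of 0.172.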

How the data were processed

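RNA-seq values of 2 samples (1 group, replicates 1 and 2) were used. The authors deposited FPKM per gene and replicate. The tools named in the submitters' processing notes are CASAVA, TopHat2 and Cufflinks, and the builds are mm10 and GRCm38. Tool versions, the annotation release, strand settings and row filters are not stated there. Columns were matched to samples by their description. Stable identifiers gave a symbol to 28256 of 28592 genes, and types, spans and start regions came from RefSeq on GRCm38.p6 by symbol (4782 genes had no type).

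The 10 genes and all lists were chosen with earlier results of these data known. Values are FPKM per replicate, mean ± SD (n = 2), and log2 differences without a pseudocount. No test was run, since 2 values against 2 cannot give an exact permutation p under 0.33. Differences between genes, taken within each replicate, have n = 2, which allows no test either. Each gene's ratio between replicates was set beside those of genes whose mean lay within 2-fold. Genes named are the 10, the 2 highest and 2 lowest of each list, neighbours whose start lies within 1000 bases on the other strand, and the Zfp genes given by rank. Of these, 1 gene is not reported here. Others named (Fam208a, Morc2a, Chd4 and the genes of overlapping spans) were chosen after their values were seen. A ranking of Zfp809 among KRAB genes found by protein sequence was not run, because no protein sequences were used here. A ranking by name, chosen after the data were seen, took its place. The alternatives were TPM, pseudocounts of 1 and 0.1, floors of 0.5 and 5, other gene pools, centring and leaving out each replicate. Depth in reads is unknown, so no counting interval is given. The comparison of replicate ratios at like levels was tested on simulated data, and the percentile rank and CpG ratio on constructed inputs. The other steps were not tested in this way (Python 3.11.15, pandas 2.3.3, numpy 2.4.6).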

Additional observations from a re-analysis of the deposited data

How the results depend on the processing

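No pairing of samples between groups was possible because the series has 1 group. Differences between genes were taken within each replicate. Rescaling to TPM multiplies replicate 1 by 1.06 and replicate 2 by 1.08. It moved the median of the 10 silencing genes from 64.8 to 69.1 and leaves every ratio between genes of a replicate as it was. With 1 added to FPKM the log2 difference was 3.55 for Trim28 over Setdb1, 3.20 for Setdb1 over Atf7ip and 2.55 for Mphosph8 over Pphln1, against 3.58, 3.47 and 2.79 without it. At a floor of 5 FPKM, 0 of 7 2-cell genes, 2 of 8 germline genes and 0 of 1 Zfp809 target remained above it. The share of all genes at this floor was 28.1%, so the germline count lies near it. Leaving out either replicate kept all 10 silencing genes detected and their median between 63.5 and 66.1. No replicate ratio changed sign with centring or a pseudocount of 1. Replicate ratios were not recomputed as TPM, whose larger factor for replicate 2 raises each of them. The smallest negative log2 ratios, -0.0083 for Atf7ip and -0.024 for Cbx1, turn positive under it. The count of genes higher in replicate 2 therefore depends on the scale. Percentile ranks depend on the pool, for example 70.0 for Atf7ip among all genes and 23.7 among detected genes. The planned rank of Zfp809 among KRAB zinc finger genes found by protein sequence was not run. With 2 replicates of 1 condition, the SDs are imprecise, and levels say nothing of protein or of silencing activity.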

Other observations

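Genes of enzymes that remove methyl groups from H3 lysine 9 were mostly detected. The list does not separate them by the methylation state they act on, so not all need act on the trimethyl mark of SETDB1. Of 9 genes for H3 lysine 9 demethylases 7 were detected, with a median FPKM of 11.98. Kdm3a was the highest at 55.7 and 58.9, above both replicate values of Setdb1, and Kdm4c was at 29.6 and 31.2. Phf2 (0.560 and 0.477) and Kdm4d (0.0835 and 0.177) were below detection. The NuRD complex, whose CHD3 subunit binds the bromodomain of TRIM28, had 10 of 10 genes detected, with a median FPKM of 32.0. The histone deacetylase gene Hdac2 was at 160 in both replicates and Mta2 at 68.9 and 68.0, whereas Chd3 was at 4.06 and 4.95 and Gatad2b at 3.17 and 3.55. Chd4, on the same list, was at 50.4 and 53.9.

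On a list of 7 further chromodomain genes (Polycomb Cbx and Cdyl genes) each was lower than each of the 3 HP1 genes. All 7 were detected, with a median FPKM of 10.7. Cdyl, a corepressor, was at 21.8 and 22.2 and the Polycomb gene Cbx7 at 16.0 and 16.4, while Cbx8 was at 3.78 and 3.16. Cbx5, the lowest HP1 gene, exceeded Cbx7 by 2.63 ± 0.11 log2 FPKM units.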
